A study of Mus musculus with 9 samples.

Results

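Integrins and cadherins are the 2 large families of surface receptors with which bone marrow stroma holds on to matrix and to other cells. The genes described here were chosen by symbol alone: integrin alpha and beta chains and numbered cadherins (Cdh), each read from an array row that carries a single gene symbol. The rule found 49 genes on 52 rows, among 19938 genes with such a row: 18 alpha chains, 8 beta chains and 23 cadherins. For the 3 genes with more than 1 row (Cdh18, Cdh24 and Itgad), the brightest row on average was used. A further 6 rows that name a family gene together with other genes were not used.

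Integrins are heterodimers of an alpha and a beta chain that bind matrix proteins or counter-receptors on cells and connect them, through talin and kindlin, to actin. The alpha chain largely sets the ligand, and a few beta chains serve many alpha chains. Classical cadherins bind cadherins of neighbouring cells in the presence of calcium and connect to actin through catenins. In marrow, stromal cells meet blood cell precursors through these contacts, for example through Vcam1 on stroma and alpha4 integrin on B cell and stem cells.

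The study profiled stromal cells of mouse marrow on 9 Affymetrix Mouse Gene ST 1.0 arrays, each giving a log2 signal per gene. A sort gate took cells without CD45 (a leucocyte antigen) or lineage markers and with CD54 (Icam1) and BP1 (Enpep). YFP-positive cells of this gate (3 arrays) came from C57Bl/6J mice heterozygous for a Rosa-eYFP reporter and carrying an IL7-Cre transgene, so that YFP marks cells in which an Il7-driven Cre is or has been active. YFP-negative cells of the same gate and genotype made up 1 array from 2300 cells. Cells of the whole gate came from wild-type C57Bl/6J mice (3 arrays, here called wild type), and unsorted marrow from wild-type mice was the control (2 arrays, 10 ng of RNA, here total marrow). The sorted mice were 6 to 12 weeks old, all groups are labelled young adult, and the other sorted samples held 1800 to 10000 cells. The labels do not say whether arrays of a group came from separate animals, so p-values measure only the spread between these samples, which may be technical.

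The YFP-negative array lay below the rest, with a median signal of 3.46 against 4.51 to 4.60 in the other 8, so its comparisons use values after cyclic loess normalization of all 9 arrays. Array quality weights ran from 0.311 (YFP-positive replicate 3) to 1.69. The sort is visible in marker genes: all 8 reticular stroma markers, among them Lepr and Cxcl12, were higher in both replicated sorted groups than in total marrow. All 5 leucocyte, 6 neutrophil, 4 measured B lineage and 7 macrophage markers were lower, the leucocyte list with a mean signal of 3.70 to 4.62 in these 6 arrays against 10.63 to 10.67 in total marrow. In whole-tissue RNA, fewer cells of a type and less RNA per cell cannot be told apart. Input RNA also differed between sorted cells and total marrow, and its part in the results was not tested.

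The starting regions of 4 genes are shown because the first pair belongs to integrin chains that were higher in the sorted stroma and the second to leucocyte chains that were lower. Each is the 250 bases before the RefSeq start (GRCm38.p6, plus strand), at chr9:62677605-62677854 for Itga11, chr2:83724147-83724396 for Itgav, chr7:128062390-128062639 for Itgam and chr7:128129300-128129549 for Itgax. Capitals mark, on either strand, GGGCGG (the GC box), TATAAA (the TATA box), CCAAT and GAGGAA (an Ets-type core).
Itga11: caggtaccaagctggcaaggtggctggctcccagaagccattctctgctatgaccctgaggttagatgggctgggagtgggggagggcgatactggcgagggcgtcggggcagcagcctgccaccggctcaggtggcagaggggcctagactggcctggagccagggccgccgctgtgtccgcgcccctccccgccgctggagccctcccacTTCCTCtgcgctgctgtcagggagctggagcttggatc
Itgav: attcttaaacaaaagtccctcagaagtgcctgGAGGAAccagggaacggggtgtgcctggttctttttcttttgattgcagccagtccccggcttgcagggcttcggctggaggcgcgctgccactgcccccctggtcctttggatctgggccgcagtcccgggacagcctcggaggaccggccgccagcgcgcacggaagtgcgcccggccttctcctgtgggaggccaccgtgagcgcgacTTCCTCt
Itgam: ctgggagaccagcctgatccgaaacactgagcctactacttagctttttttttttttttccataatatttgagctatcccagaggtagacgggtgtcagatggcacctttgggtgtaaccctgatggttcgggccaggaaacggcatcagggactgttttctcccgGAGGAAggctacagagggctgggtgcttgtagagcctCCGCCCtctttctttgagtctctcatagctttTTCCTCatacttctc
Itgax: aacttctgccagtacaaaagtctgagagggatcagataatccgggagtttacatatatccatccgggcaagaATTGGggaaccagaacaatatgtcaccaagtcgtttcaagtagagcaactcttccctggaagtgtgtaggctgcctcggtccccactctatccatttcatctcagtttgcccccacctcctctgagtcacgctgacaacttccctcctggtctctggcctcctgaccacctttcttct

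The windows of Itga11 (68.4% G and C) and Itgav (64.4%) are richer in G and C than those of Itgam (49.6%) and Itgax (50.0%), where the median over 32851 RefSeq windows of this length is 52.4%. GAGGAA occurs in all but the Itgax window. Over the family, 31 of the 49 genes had 35 such windows. GAGGAA was found in 14 of the 35 windows, against 23.3% of all windows. The GC box was found in 12 of them (32.7% of all), CCAAT in 9 (33.8% of all) and TATAAA in 0 (12.4% of all). These are matches of letters in a window only.

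Sorted stroma was set against total marrow to ask which adhesion receptors separate the gated cells from the marrow as a whole. A gene is called at a Benjamini-Hochberg adjusted p under 0.05 in limma over all 21789 rows with 1 gene. In YFP-positive cells 12 family genes were higher and 10 lower, where 11% and 18.5% of all rows were called. In wild-type cells 11 were higher and 10 lower, where 10.4% and 13.9% of all rows were called. Without either one of the total marrow arrays, Itga3, Itga8, Itga9, Itga10 and Cdh4 were no longer called higher in YFP-positive cells. Itga2b and Cdh5 were no longer called lower there, nor was Cdh1 without total marrow replicate 1. In wild-type cells Itga5 and Itga8 lost their higher calls likewise, and Itga2b and Cdh5 their lower calls. Both comparisons use the same total marrow arrays, so their calls are not independent, and the values of each gene are given side by side. The alpha chains were called in 72.2% and the cadherins in 21.7% of their members in YFP-positive cells, where 29.5% of all rows were called. The median difference of the 49 genes was 0.16 for YFP-positive and 0.06 for wild-type cells, beside 0.09 and 0.00 over all rows.

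**Figure D1:**
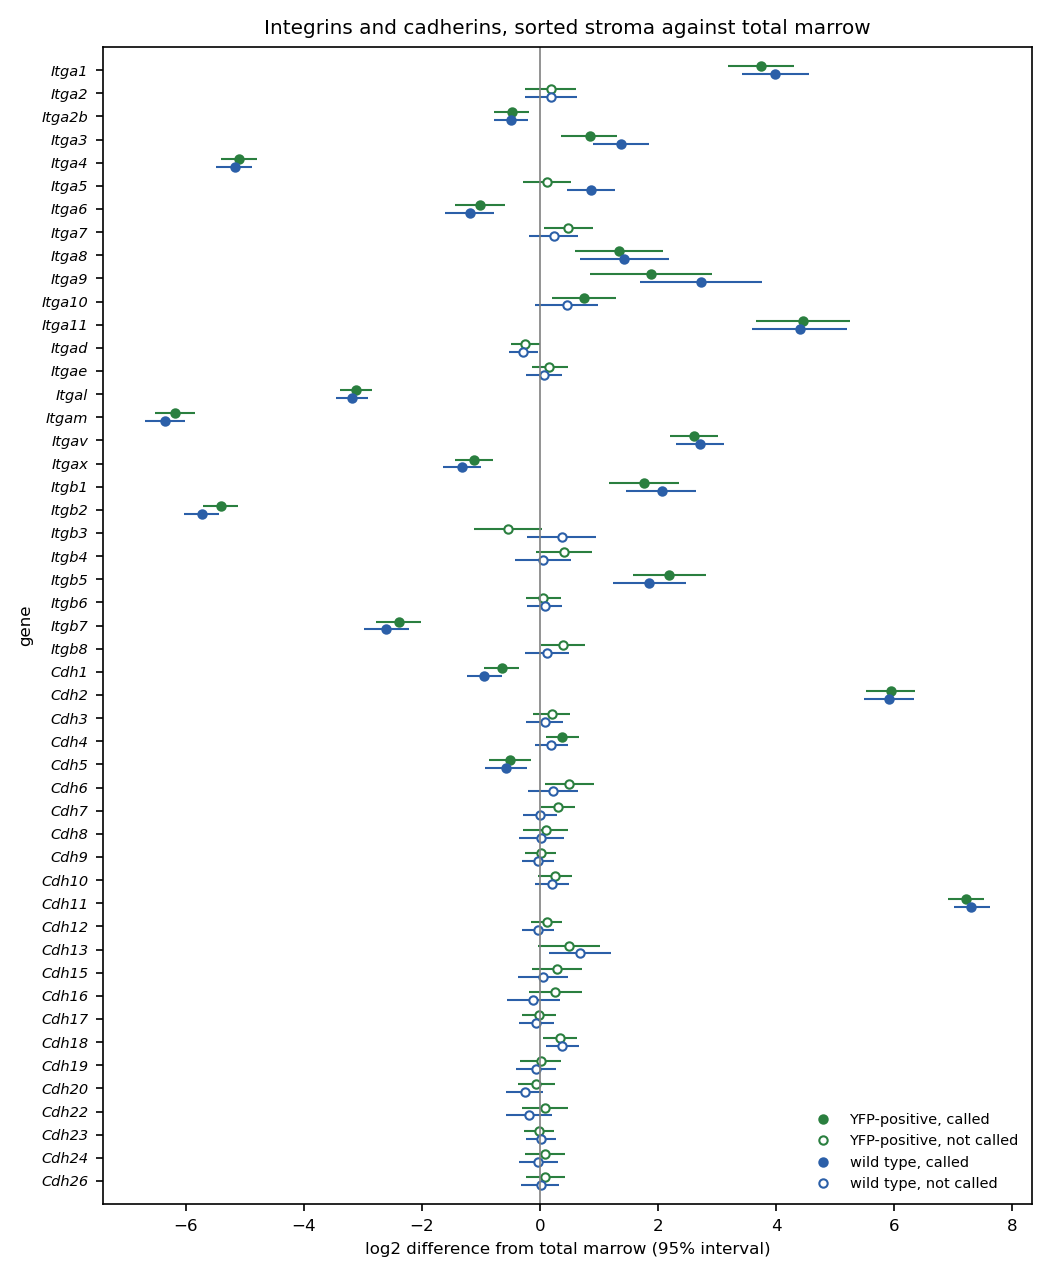
Log2 difference of each of the 49 genes from total marrow (horizontal axis) in YFP-positive and wild-type cells, with the 95% interval from limma. Filled points are called at an adjusted p under 0.05; Cdh11 lies at the right (7.22 and 7.31) and Itgam at the left (−6.18 and −6.35).

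Cdh11 (OB-cadherin, a type II cadherin known from osteoblasts and other mesenchymal cells) was higher in both sorted groups. Its log2 signal was 11.44, 11.59 and 11.29 in the YFP-positive arrays, 11.51, 11.47 and 11.60 in wild-type arrays and 4.12 and 4.31 in total marrow. All 6 sorted arrays lay far above both total marrow arrays. The difference was 7.22 ± 0.13 (SE, n = 3 and 2, adjusted p = 6.98e-08) in YFP-positive cells and 7.31 ± 0.13 (adjusted p = 6.34e-08) in wild type. Total marrow stood below the median of all values (4.43), so the difference is read as a lower bound on this scale, here and for every gene of which this is said.

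Cdh2 (N-cadherin, a type I cadherin of mesenchymal and neural cells) was higher as well. It stood at 9.68, 9.22 and 9.18 in YFP-positive, 9.24, 9.33 and 9.43 in wild-type and 3.56 and 3.29 in total marrow arrays. The groups did not overlap, and the sorted arrays stayed within a narrow band. The difference was 5.94 ± 0.18 (SE, n = 3 and 2, adjusted p = 3.55e-07) and 5.91 ± 0.18 (adjusted p = 3.13e-07), again a lower bound.

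No other cadherin changed by as much as 1 log2 unit in these comparisons. Cdh1 (E-cadherin, an epithelial type I cadherin also found on erythroid precursors) was lower, by −0.65 in YFP-positive cells and −0.94 in wild type. It stood at 4.04, 4.30 and 4.2, then at 3.82, 4.0 and 3.83, against 4.90 and 4.75 in total marrow. The sorted arrays lay below both marrow arrays and under the median of all values. The YFP-positive call of Cdh1 ended without total marrow replicate 1 (−0.57, adjusted p = 0.0729).

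Cdh5 (VE-cadherin of endothelium) was called lower by −0.51 and −0.58, with both groups below the median of all values, so its size is not resolved. Its YFP-positive call ended without any one of the total marrow (adjusted p = 0.0684 and 0.244) or wild-type arrays (0.0661, 0.0531 and 0.0515) and without YFP-positive replicate 1 (0.0848) or 2 (0.0730). Its wild-type call ended without total marrow replicate 1 (0.0538) or 2 (0.216) and without wild-type replicate 1 (0.0783) or 3 (0.0878). Of 10 endothelial markers, 3 were lower in each comparison (Pecam1, Erg and Egfl7) and 0 higher. Of all rows, 18.5% and 13.9% were called lower in YFP-positive and wild-type cells. The list's mean signal was 3.64 to 3.93 in these sorted arrays against 4.18 to 4.25 in total marrow. The part of endothelial cells in the Cdh5 difference was not tested.

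Cdh4 (R-cadherin) was higher in YFP-positive cells by 0.38 (adjusted p = 0.0491). That call ended without total marrow replicate 1 (0.256) or 2 (0.120), without YFP-positive replicate 1 (0.100) or 3 (0.0839), and without any wild-type array (0.0743 to 0.0774). It also ended after cyclic loess (0.0561) or median centring (0.0612), with a filter on dim rows (0.0965) and with an intensity trend (0.102). The remaining 18 cadherins of the YFP-positive comparison were not called, and their differences ran from −0.06 (Cdh20) to 0.50 (Cdh6). In wild-type cells 19 were not called, from −0.25 (Cdh20) to 0.68 (Cdh13, a cadherin anchored by a lipid). There Cdh13 gained a call after quantile normalization (adjusted p = 0.0479), with an intensity trend (0.0449) and without wild-type replicate 3 (0.00884). Cdh18 gained one in wild type after cyclic loess (0.0444), quantile normalization (0.0443) or an intensity trend (0.0200), and in YFP-positive cells with the trend (0.0290). For 16 of the 23 cadherins both groups stood below the median of all values in either comparison.

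**Figure D2:**
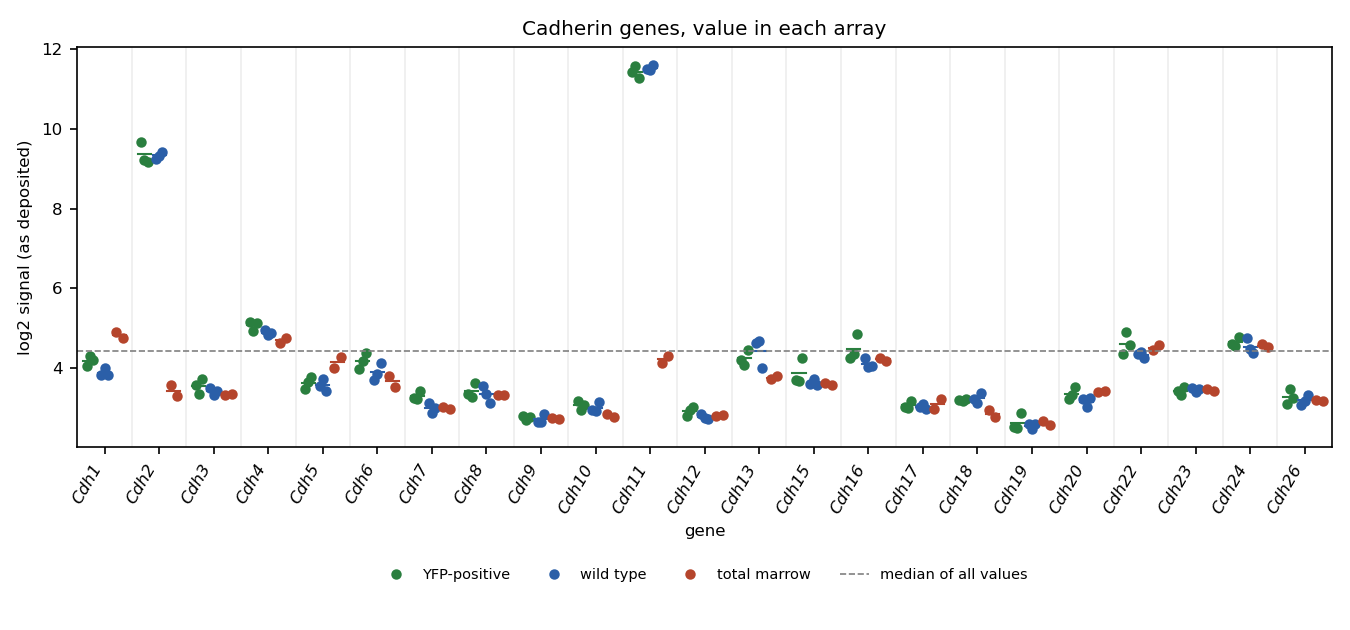
Deposited log2 signal (vertical axis) of the 23 cadherins in each YFP-positive, wild-type and total marrow array, with a bar at the group mean and the median of all values (4.43) as a dashed line. Cdh2 and Cdh11 are the genes whose sorted arrays lie far above total marrow.

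Some family genes lie next to each other. In RefSeq gene order Cdh8, Cdh11 and Cdh5 follow each other on chromosome 8. Cdh8 differed from total marrow by 0.10 in YFP-positive and 0.02 in wild type and was not called, beside 7.22 for Cdh11 and −0.51 for Cdh5 in YFP-positive cells. Itga1 and Itga2 are neighbours on chromosome 13 and differed by 3.74 and 0.18, the latter not called.

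The collagen-binding alpha chains were Itga1, Itga2, Itga10 and Itga11, which pair with beta1. Of these 4 genes, 3 rose in YFP-positive cells and 2 in wild type, and 0 fell. Of all rows, 11% and 10.4% were called higher. Itga11 (alpha11, a receptor for fibrillar collagen on mesenchymal cells) stood at 9.28, 8.36 and 8.04 in YFP-positive, 8.30, 8.40 and 8.80 in wild-type and 4.05 and 4.15 in total marrow arrays. Its sorted arrays lay well above total marrow, and YFP-positive replicate 1 was the highest of them. The difference was 4.46 ± 0.34 (SE, n = 3 and 2, adjusted p = 4.30e-05) and 4.40 ± 0.34 (adjusted p = 4.41e-05), read as a lower bound.

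Itga1 (alpha1, which binds collagen IV among others) stood at 9.05, 9.59 and 8.75 in YFP-positive, 9.26, 9.40 and 9.47 in wild-type and 5.57 and 5.21 in total marrow arrays. The groups did not overlap, and total marrow was above the median of all values, so this difference is not a bound. It was 3.74 ± 0.24 (SE, n = 3 and 2, 13.4-fold, adjusted p = 1.64e-05) and 3.99 ± 0.24 (15.9-fold, adjusted p = 1.06e-05).

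Itga10 (alpha10, known from cartilage) was called in YFP-positive cells (0.75, adjusted p = 0.0439) and not in wild-type cells (0.45, 95% interval −0.08 to 0.98). Its total marrow arrays lay under the median of all values. The call ended after cyclic loess (0.68, adjusted p = 0.0554) or quantile normalization (0.77, 0.0734), without total marrow replicate 1 (0.281) or 2 (0.0640), and without any wild-type array (0.0671 to 0.0707). Itga2 (alpha2, a collagen receptor of platelets and epithelia) was not called in either, with 0.18 in both.

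Among alpha chains that bind the RGD motif of fibronectin and vitronectin (Itga5, Itga8, Itgav, and Itga2b of platelets), Itgav and Itga8 rose in both comparisons. Itgav (alphaV, the chain of several vitronectin and TGF-beta binding integrins) stood at 9.16, 9.30 and 8.79 in YFP-positive, 9.11, 9.12 and 9.30 in wild-type and 6.58 and 6.38 in total marrow arrays. No sorted array came near the marrow arrays. The difference was 2.61 ± 0.17 (SE, n = 3 and 2, 6.10-fold, adjusted p = 1.78e-05) and 2.71 ± 0.17 (6.52-fold, adjusted p = 1.36e-05).

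Itga8 (alpha8, a nephronectin receptor of mesenchyme) stood at 6.08, 4.89 and 5.04 in YFP-positive, 5.41, 5.45 and 5.43 in wild-type and 3.93 and 4.06 in total marrow arrays. YFP-positive replicate 1 was above its companions, and the wild-type arrays nearly coincided. The difference was 1.34 ± 0.32 (SE, adjusted p = 0.0172) and 1.43 ± 0.32 (adjusted p = 0.0142), where total marrow lay under the median of all values. Both calls ended without total marrow replicate 1 (1.28, adjusted p = 0.112, and 1.37, 0.101) or replicate 2 (1.40, 0.0775, and 1.5, 0.0718).

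Itga5 (alpha5, the main fibronectin receptor chain) was higher in wild-type cells by 0.87 (adjusted p = 0.00857). In YFP-positive cells it stood 0.12 above total marrow and was not called. The wild-type call ended without total marrow replicate 1 (0.84, adjusted p = 0.0684) or 2 (0.89, 0.0527). Itga2b (alphaIIb of megakaryocytes and platelets) was lower by −0.48 and −0.49, with both sorted groups under the median of all values. Its YFP-positive call ended without total marrow replicate 1 (adjusted p = 0.0537) or 2 (0.173) and without YFP-positive replicate 1 (0.0515) or 2 (0.0642), and its wild-type call without total marrow replicate 1 (0.0531) or 2 (0.193) and without wild-type replicate 2 (0.0688) or 3 (0.0774). Of 5 measured megakaryocyte and platelet markers, 4 were lower in each comparison and 0 higher, beside 18.5% and 13.9% of all rows lower. The list's mean signal was 4.01 to 4.46 in these sorted arrays against 6.71 to 6.79 in total marrow. Its part in the Itga2b difference was not tested.

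The related chains alpha4 and alpha9, which both bind Vcam1 among other ligands, went opposite ways. Itga4 (alpha4, an integrin of leucocytes and progenitors) stood at 3.27, 3.35 and 3.49 in YFP-positive, 3.16, 3.28 and 3.43 in wild-type and 8.52 and 8.41 in total marrow arrays. All sorted arrays were below the median of all values. The difference was −5.10 ± 0.13 (SE, n = 3 and 2, adjusted p = 2.12e-07) and −5.17 ± 0.13 (adjusted p = 1.71e-07).

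Itga9 (alpha9, a receptor for tenascin C and Vcam1) stood at 7.62, 6.04 and 6.16 in YFP-positive, 7.17, 7.52 and 7.68 in wild-type and 4.65 and 4.81 in total marrow arrays. The YFP-positive arrays were split, replicate 1 lying with the wild-type arrays and the other 2 below them, yet all were above total marrow. The difference was 1.88 ± 0.44 (SE, n = 3 and 2, adjusted p = 0.0158) and 2.73 ± 0.44 (adjusted p = 0.00289). The YFP-positive call ended without total marrow replicate 1 (1.80, adjusted p = 0.105) or 2 (1.96, 0.0744).

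Laminin-binding alpha chains were mixed. Itga3 (alpha3) was higher by 0.84 (adjusted p = 0.0184) and 1.38 (adjusted p = 0.00179), where total marrow lay under the median of all values. The YFP-positive call ended without total marrow replicate 1 (0.87, adjusted p = 0.0920) or 2 (0.80, 0.104). Itga6 (alpha6, found on many epithelial and blood cells) was lower by −1.02 (adjusted p = 0.00414) and −1.19 (adjusted p = 0.00191). Its sorted arrays all lay under the median of all values. Itga7 (alpha7, the muscle laminin receptor) was not called, at 0.48 and 0.23.

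Of 5 leucocyte alpha chains, 3 fell in both comparisons and 0 rose, where 18.5% and 13.9% of all rows were called lower. The gate took cells without CD45 or lineage markers, so the sort selected against leucocytes in advance. The part of this selection in these differences and in that of Itga4 was not tested. Itgam (alphaM or CD11b, of granulocytes and macrophages) stood at 3.48, 3.30 and 3.37 in YFP-positive, 3.38, 3.19 and 3.05 in wild-type and 9.43 and 9.69 in total marrow arrays. The sorted arrays were all below the median of all values. The difference was −6.18 ± 0.15 (SE, n = 3 and 2, adjusted p = 1.75e-07) and −6.35 ± 0.15 (adjusted p = 1.39e-07).

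Itgal (alphaL or CD11a, of lymphocytes and other leucocytes) stood at 3.68, 3.53 and 3.70 in YFP-positive, 3.59, 3.51 and 3.59 in wild-type and 6.84 and 6.67 in total marrow arrays. It was lower by −3.12 ± 0.12 (SE, adjusted p = 7.84e-07) and −3.19 ± 0.12 (adjusted p = 6.25e-07). Itgax (alphaX or CD11c, of dendritic cells and macrophages) was lower by −1.12 (adjusted p = 0.000651) and −1.32 (adjusted p = 0.000256). For Itgal and Itgax every sorted array lay under the median of all values. Itgam, Itgax and Itgad follow each other on chromosome 7. Itgad (alphaD) was not called on the row used (−0.25 and −0.28), while its other row, with a mean of 3.65 against 3.67, was called lower (−1.06, adjusted p = 0.0362, and −1.18, 0.0271). The rows of this gene thus disagree on deposited values. After cyclic loess (−0.38, adjusted p = 0.0261) or quantile normalization (−0.34, 0.0419) the row used was called lower in YFP-positive cells too. Itgae (alphaE or CD103, of intraepithelial T cells) was not called, at 0.16 and 0.07.

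Of the 8 beta chains, 2 rose and 2 fell in each comparison. Of all rows, 11% were called higher and 18.5% lower in YFP-positive cells, and 10.4% and 13.9% in wild type. Counts over so few genes are not read as a pattern of the family. Itgb1 (beta1, partner of most matrix-binding alpha chains) stood at 9.71, 10.08 and 9.27 in YFP-positive, 9.76, 9.90 and 10.26 in wild-type and 8.06 and 7.78 in total marrow arrays. It was high in total marrow too, and still separated from every sorted array. The difference was 1.77 ± 0.26 (SE, n = 3 and 2, 3.40-fold, adjusted p = 0.00149) and 2.06 ± 0.26 (4.16-fold, adjusted p = 0.000671).

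Itgb5 (beta5, which pairs with alphaV) stood at 7.03, 7.94 and 7.90 in YFP-positive, 7.34, 7.37 and 7.13 in wild-type and 5.43 and 5.43 in total marrow arrays. YFP-positive replicate 1 was the lowest of its group, and all sorted arrays exceeded total marrow. The difference was 2.19 ± 0.27 (SE, n = 3 and 2, 4.58-fold, adjusted p = 0.000591) and 1.85 ± 0.27 (3.61-fold, adjusted p = 0.00150).

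Itgb2 (beta2 or CD18, the partner of alphaL, alphaM, alphaX and alphaD) stood at 3.87, 4.04 and 3.86 in YFP-positive, 3.73, 3.60 and 3.46 in wild-type and 9.37 and 9.30 in total marrow arrays. The difference was −5.41 ± 0.13 (SE, n = 3 and 2, adjusted p = 1.73e-07) and −5.73 ± 0.13 (adjusted p = 1.22e-07). Itgb7 (beta7, the partner of alpha4 and alphaE on lymphocytes) stood at 3.95, 3.89 and 4.05 in YFP-positive, 3.57, 3.77 and 3.90 in wild-type and 6.56 and 6.14 in total marrow arrays. It was lower by −2.39 ± 0.16 (SE, adjusted p = 2.25e-05) and −2.60 ± 0.16 (adjusted p = 1.28e-05). Both leucocyte beta chains lay below the median of all values in every sorted array shown. The leucocyte markers were lower as well, and the part of leucocytes in these differences was not tested. Itgb3, Itgb4, Itgb6 and Itgb8 were not called, with differences from −0.54 to 0.40 in YFP-positive cells and 0.06 to 0.37 in wild type.

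**Figure D3:**
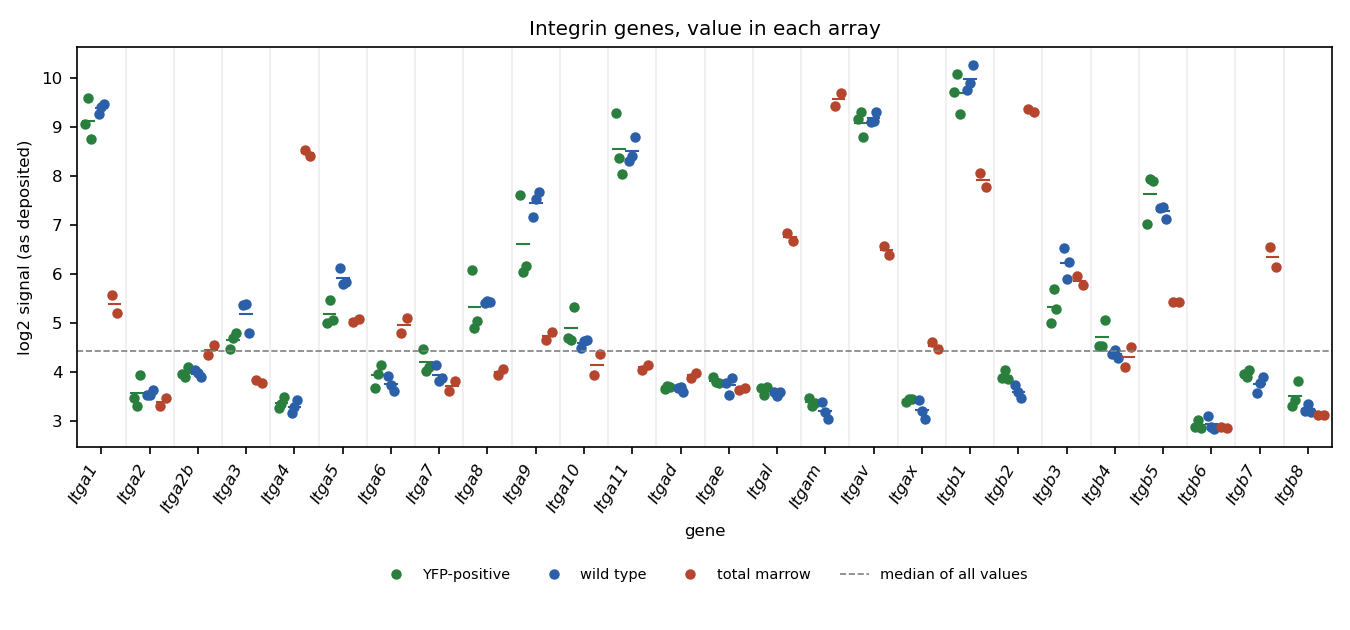
Deposited log2 signal (vertical axis) of the 26 integrin chains in each YFP-positive, wild-type and total marrow array, with a bar at the group mean and the median of all values (4.43) as a dashed line. Itga1, Itga11, Itgav, Itgb1 and Itgb5 are higher in the sorted arrays, and Itga4, Itgal, Itgam, Itgb2 and Itgb7 in total marrow.

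Proteins that work with these receptors included paralogs with opposite signs. The counts that follow stand beside 11% of all rows called higher and 18.5% lower in YFP-positive cells, and 10.4% and 13.9% in wild-type cells. Of 28 measured integrin adaptors and focal adhesion genes, in YFP-positive cells 7 were higher and 8 lower, and 7 and 7 in wild-type cells. Fermt2 (kindlin-2 of mesenchymal and many other cells) was higher by 4.70 and 5.28, while Fermt3 (kindlin-3 of blood cells) was lower by −3.12 and −3.57. Parva (alpha-parvin) was higher by 4.21 and 4.51, and Parvg (gamma-parvin of blood cells) was lower by −4.31 and −4.63. Tln2 (talin-2) was higher by 2.71 and 2.90, and Tln1 (talin-1) was lower by −1.06 and −0.76. Tgfb1i1 (Hic-5, a paxillin relative) was higher by 4.30 and 4.83, and Pxn (paxillin) was lower by −3.11 and −1.98. Fermt2, Parva and Tln2 lay under the median of all values in total marrow, Parvg in both sorted groups and Fermt3 in wild-type cells, so these differences are lower bounds. These pairs were picked from the list after their values were seen.

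Of 18 catenins and cadherin partners, in YFP-positive cells 4 were higher and 1 lower, and 6 and 1 in wild-type cells. Ctnnd1 (p120-catenin, which holds cadherins at the membrane) was higher by 3.29 and 3.50, and Nectin3 (a nectin of adherens junctions) by 1.55 and 1.64. Of 30 measured cadherin superfamily genes outside the Cdh series, in YFP-positive cells 7 were higher and 0 lower, and 6 and 1 in wild-type cells. Fat1 (an atypical giant cadherin) was higher by 5.44 and 5.37, Pcdh18 (a protocadherin) by 5.39 and 5.39 and Fat4 by 3.75 and 3.54. For these 3 genes and Nectin3 total marrow lay under the median of all values, so the differences are lower bounds.

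Of 41 measured integrin ligands, in YFP-positive cells 26 were higher and 3 lower, and 24 and 2 in wild-type cells, with a median difference of 1.16 and 1.47 beside 0.09 and 0.00 over all rows. Tnc (tenascin C, a ligand of alpha9) was higher by 7.60 and 7.66, and Ccn1 (a matricellular ligand of alphaV integrins) by 7.01 and 7.14, both lower bounds since total marrow lay under the median of all values. Vcam1, the counter-receptor of alpha4 and alpha9, was higher by 3.14 and 3.28. Fn1 (fibronectin) was lower in YFP-positive cells (−2.04, adjusted p = 0.0475) and was not called in wild-type cells (−1.59, adjusted p = 0.127). Icam2 and Icam4, ligands of beta2 integrins, were lower by −2.10 and −2.43 in YFP-positive cells and −2.40 and −2.76 in wild type, with Icam4 under the median of all values in the sorted groups.

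YFP-positive cells were then set against wild-type cells of the same gate, to ask whether the reporter-marked cells carry other adhesion receptors. The groups also differ in genotype, since the wild-type mice carry neither Cre nor reporter. limma called 0 of the 49 genes, where 0% of all rows were called, and 6 had an unadjusted p under 0.05. For 46 genes the 95% interval of the difference lay within 1 log2 unit of 0, among them Cdh11, Cdh2 and all 23 cadherins. The exceptions were Itga5, Itga9 and Itgb3. For 30 of the 49 genes, 16 of them cadherins, both groups stood below the median of all values. The size of a difference is not resolved there, so a narrow interval says little for these genes.

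Of the genes nearest to a call, Itga5 (alpha5) stood at 4.99, 5.47 and 5.07 in YFP-positive and 6.12, 5.80 and 5.84 in wild-type arrays. The groups did not overlap. The difference was −0.74 ± 0.16 (SE, n = 3 and 3, 95% interval −1.11 to −0.38, adjusted p = 0.172). Itgb3 (beta3, the vitronectin receptor chain of osteoclasts and platelets) stood at 5.0, 5.70 and 5.28 against 6.54, 5.90 and 6.25. Every wild-type array was above every YFP-positive array. The difference was −0.91 ± 0.22 (SE, n = 3 and 3, 95% interval −1.43 to −0.39, adjusted p = 0.217). Itga3 (alpha3) stood at 4.46, 4.69 and 4.79 against 5.37, 5.39 and 4.79, overlapping at 1 array of each group, with a difference of −0.54 (95% interval −0.97 to −0.11, adjusted p = 0.292). Itga9 differed by −0.85 with a wide interval (−1.78 to 0.07), its YFP-positive arrays being split as described.

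**Figure D4:**
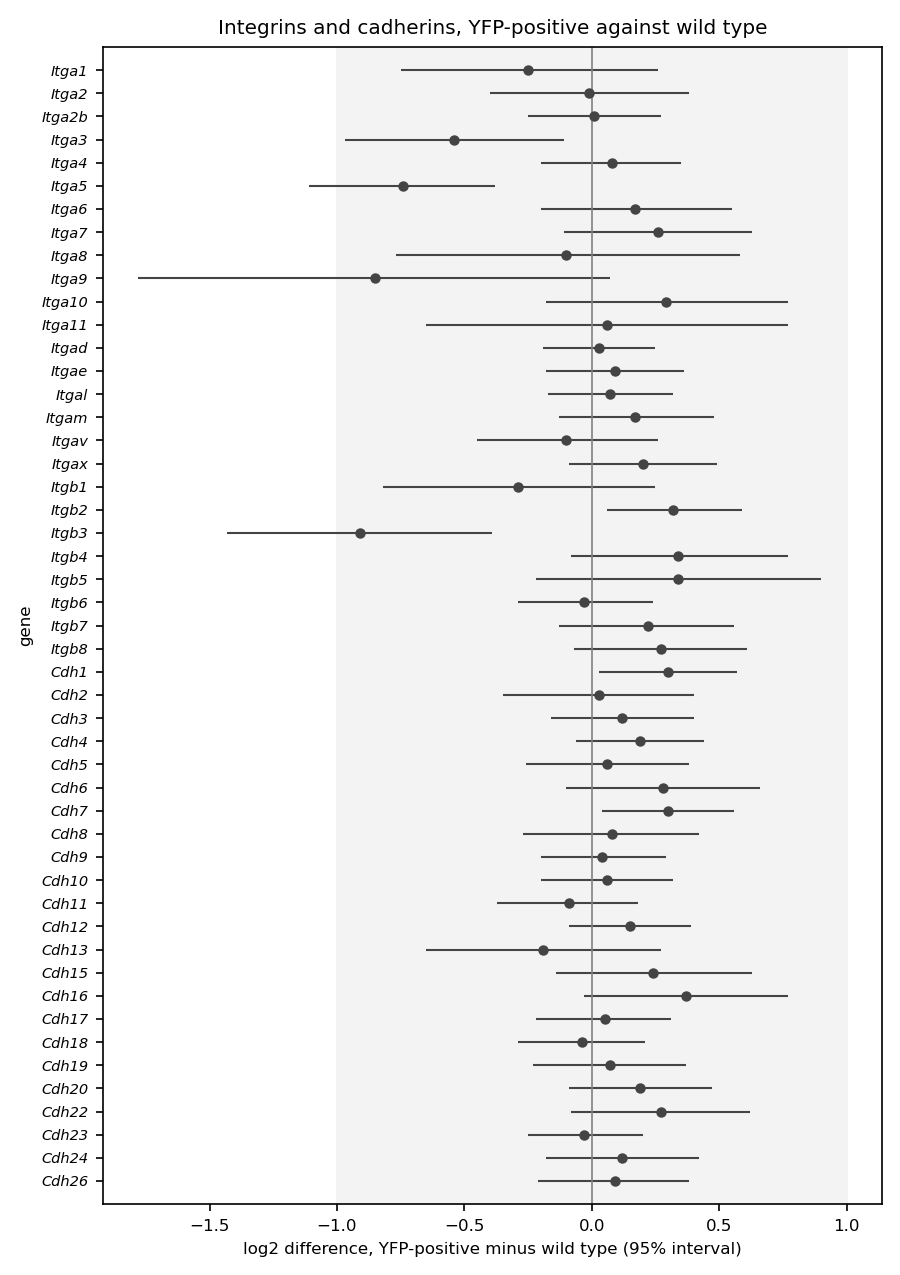
Log2 difference of each of the 49 genes between YFP-positive and wild-type cells (horizontal axis), with the 95% interval from limma on deposited values. The shaded band spans 1 log2 unit on either side of 0, no gene is called, and the intervals of Itga5, Itga9 and Itgb3 reach outside the band.

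The YFP-negative array, the rest of the gate in reporter mice, was compared with the same total marrow arrays. On cyclic loess values, 15 family genes were higher and 8 lower than in total marrow, where 13% and 13.2% of all rows were called. With a single array, the test borrows the spread of the replicated groups, and array and group cannot be told apart. Cdh11 stood at 11.17 against 3.47 and 3.74 in total marrow (difference 7.57 ± 0.20 SE), Cdh2 at 9.67 against 3.01 and 2.86 (6.73 ± 0.19) and Itga11 at 8.58 against 3.57 and 3.78 (4.91 ± 0.41). These differences were 6.28, 5.34 and 3.50 on deposited values, so they kept their direction.

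Further genes above total marrow were Itga1 (4.22), Itga9 (3.72), Itgb5 (3.59), Itgav (3.17) and Itgb1 (2.55), each also called on deposited values (2.83, 2.26, 2.16, 1.79 and 1.23). Itga3 (1.60), Itga5 (1.67), Itga2 (0.83) and Itgb8 (0.75) were called higher on cyclic loess values and not on deposited values (0.44, 0.26, 0.09 and 0.07). Itga10 (1.06), Cdh13 (0.89) and Cdh24 (0.64) were also called higher, but lay below total marrow on deposited values (−0.07, −0.06 and −0.48). The calls of Itga2, Itgb8, Cdh13 and Cdh24 ended without total marrow replicate 1 (adjusted p = 0.0990, 0.0648, 0.140 and 0.0753) or replicate 2 (0.0531, 0.0608, 0.115 and 0.0992). Itga10 lost its call without total marrow replicate 1 (0.135) or any wild-type array (0.0522 to 0.0593), and Cdh13 also without YFP-positive replicate 1 (0.0608) or 2 (0.0502) or wild-type replicate 1 (0.0694) or 2 (0.0514). Lower were Itgam (−6.14), Itgb2 (−5.05), Itga4 (−4.86), Itgal (−2.77), Itgb7 (−2.43), Itga6 (−1.81), Itgax (−1.03) and Cdh1 (−1.0). They were lower on deposited values as well. There the array lay −0.85 below total marrow in median difference over all rows, so a lower value on that scale adds little.

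Against YFP-positive cells, 1 of the 49 genes (2.04%) was called higher and 0 lower in the YFP-negative array. Of all rows 2.62% were called higher and 1.36% lower (3.98% in either direction), so the family count is no more than that share. The gene was Itga5, at 6.58 in the YFP-negative array on cyclic loess values, above 4.93, 5.40 and 5.10 in YFP-positive and 5.99, 5.61 and 5.74 in wild-type arrays. Its difference from YFP-positive cells was 1.43 ± 0.22 (SE, n = 1 and 3, adjusted p = 0.0222). After quantile normalization it was 1.37 (adjusted p = 0.0198) and after median centring 1.25 (0.0231), but on deposited values 0.14 (0.578). The call ended without total marrow replicate 1 (1.42, adjusted p = 0.0583) or 2 (1.42, 0.0578), which enter the estimate of the spread. The Itga5 call also ended with the replicate number as a block (difference 1.45). Fn1, the ligand of alpha5beta1, differed by 1.12 ± 0.90 (SE) and was not called. Of the 28 measured adaptors, those called were Ilk (integrin-linked kinase, 1.32 ± 0.23 SE) and Tln2 (−1.21 ± 0.23). Of the 41 measured integrin ligands, those called were Npnt (nephronectin, 1.51 ± 0.28) and Col1a2 (a collagen I chain, −0.81 ± 0.14).

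Against wild-type cells, 3% of all rows were called higher and 1.57% lower (4.56% in either direction). Of the 49 genes, 1 was called higher (2.04%, no more than that share) and 0 lower. It was Itgb2, at 4.22 against 3.65, 3.50 and 3.44, with a difference of 0.70 ± 0.14 (SE, n = 1 and 3, adjusted p = 0.0405) that turns to −0.60 on deposited values. Both groups stood below the median of all values after cyclic loess (4.53), so its size is not resolved. The call ended without any one total marrow or wild-type array, and after quantile normalization (difference 0.22) or median centring (0.48). It also ended with a filter on dim rows (0.70), with an intensity trend (0.70) and with the replicate number as a block (0.65). Of the 5 leucocyte markers 0 were called in this comparison, and of 6 neutrophil markers 1 was higher (Mmp8, 0.93). The mean signal of the leucocyte list was 4.16 in the YFP-negative array and 3.51 to 4.21 in wild-type arrays. That of the neutrophil list was 4.43, above the 3.39 to 3.79 of wild-type arrays, and on deposited values 3.23 against 3.56 to 3.92. The part of these cells in the Itgb2 difference was not tested.

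Itgb3 and Itgb5 were the beta chains farthest from wild type in the YFP-negative array. On cyclic loess values 33 of the 49 genes lay wholly above or below the wild-type arrays, so such a position alone says little. Itgb3 stood at 4.77 against 6.40, 5.69 and 6.13, below every wild-type array, with a difference of −1.31 (adjusted p = 0.0702). Itgb3 was lower under every scaling, by −1.51 after quantile normalization and −1.65 after median centring, and was called under both of these. Its difference of −2.72 as deposited includes the shift of this array, −0.88 in median difference over all rows. Itgb5 stood at 8.64 against 7.12, 7.0 and 6.86, above every wild-type array, with a difference of 1.64 (adjusted p = 0.0612). Itgb5 was called without YFP-positive replicate 1 or 3 and after median centring, and was not called after quantile normalization. It was higher under every scaling, though by 0.31 on deposited values. Cdh11 differed from wild type by −0.06 and Cdh2 by 0.65 on cyclic loess values, neither called, and by −1.04 and −0.57 as deposited.

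**Figure D5:**
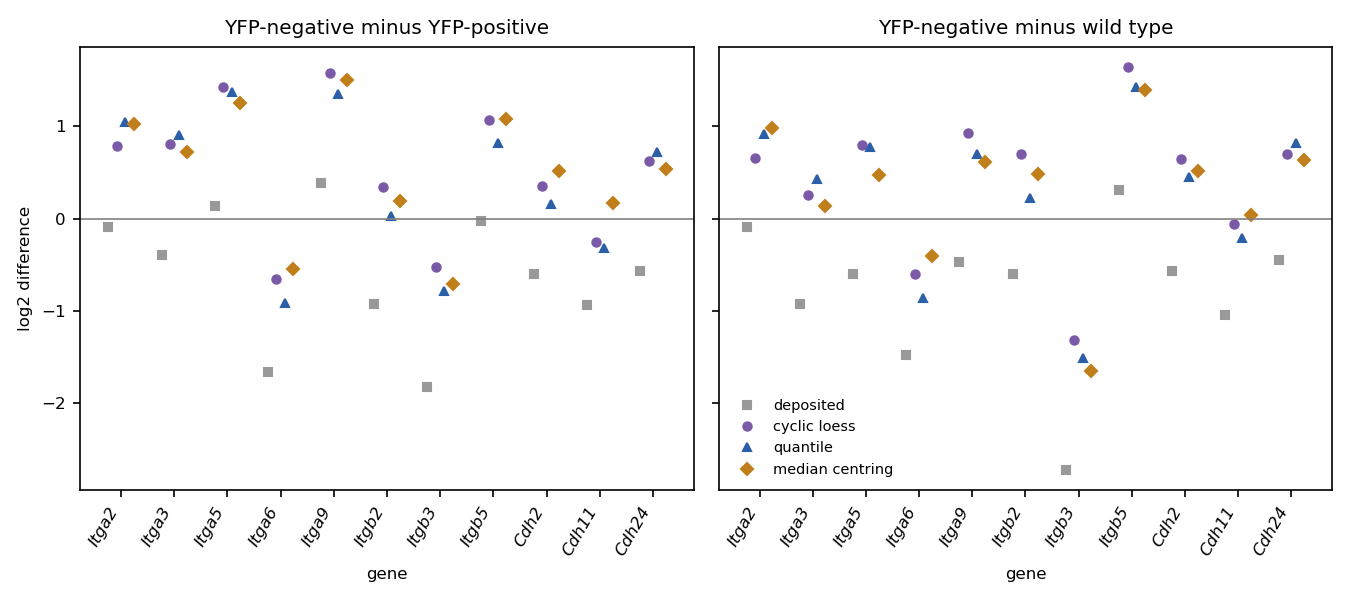
Log2 difference (vertical axis) of the YFP-negative array from YFP-positive cells (left) and from wild-type cells (right) for 11 family genes under deposited, cyclic loess, quantile and median-centred values. Itga5 against YFP-positive runs from 0.14 to 1.43 and Itgb3 against wild type from −2.72 to −1.31 across the scalings.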

How the data were processed

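The authors deposited a log2 signal for each transcript cluster on each array; per the submitters' processing notes they were made with Affymetrix Expression Console 1.3.1 and RMA, a method that by design corrects background, quantile normalizes and summarises probes. Per the labels' protocols, amplification used a whole-transcriptome kit (NuGEN Ovation Pico). Whether all arrays were summarised together is not given in the sources used here, nor is a genome build. Of 35556 rows, 21789 pair with 1 gene symbol in the platform annotation and were tested without an intensity filter; 1621 with several and 12146 with no symbol were left out. All 49 family genes matched the RefSeq table (GRCm38.p6) by Entrez identifier, with unchanged symbols.

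All 9 arrays entered 1 limma fit (limma 3.58.1, R 4.3.3; a mean per group, default eBayes, two-sided, 5 residual and 2.50 prior degrees of freedom as deposited). Comparisons with the YFP-negative array used cyclic loess values (2.27 prior degrees of freedom), since that array lay −0.91 to −0.85 below the others in median difference; the others used deposited values. The number of arrays limits the precision. Values in every array are given for genes called with a difference of at least 2, for Cdh11, Cdh2 and Itga11, and for those called or nearest to a call between sorted groups; Itga8, Itga9 in YFP-positive cells, Cdh1, Itgb3 and Itgb5 among sorted groups were added after their values were seen. The genes, lists, rule and alternatives were chosen with earlier results of these data known. Same-numbered replicates did not deviate together (correlations of −0.06, −0.03 and −0.01), so replicate numbers were not used as pairs.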

Additional observations from a re-analysis of the deposited data

How the results depend on the processing

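With YFP-positive or wild-type cells against total marrow, every alternative other than leaving out an array kept the counts within 1.5 times of 12 and 10, and of 11 and 10, also without the YFP-negative array. Leaving out an array gave 7 to 12 genes higher in YFP-positive cells, 7 without either total marrow array; 0 genes were called between YFP-positive and wild-type cells throughout. The comparisons of the YFP-negative array depended on the scaling. On deposited values 8 genes were higher and 31 lower than in total marrow, and 0 were higher and 40 lower than in YFP-positive and likewise in wild-type cells. Against YFP-positive cells quantile normalization gave 4 higher and 1 lower, median centring 5 higher, and an intensity trend 2 higher; leaving out an array gave 0 to 2 higher. Against wild type, quantile normalization gave 3 higher and 2 lower, median centring 9 higher and 1 lower, and the filter on dim rows 0 higher; leaving out an array gave 0 to 5 higher and 0 to 1 lower. With the replicate number as a block, 0 genes were higher in either of these comparisons; the block also gave 10 and 8 for YFP-positive and 11 and 8 for wild-type cells against total marrow. On deposited values the sign turned for Itgb2 against wild type (−0.60) and for Itga10 (−0.07), Cdh13 (−0.06) and Cdh24 (−0.48) against total marrow. The cause of these changes was not tested beyond the median shift of the array.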
